A study of Mus musculus with 14 samples.

Results

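The genes described here are a module of 40 cell cycle and replication genes, listed by gene name. The list was made with earlier results of these data known, so counts over it are not independent of them. The array annotation gave a probe set to 39 of them, among 17097 genes tested. No probe set carried the symbol of Ccnb1, so the gene was not analysed here. RNA came from bulge cells and interfollicular epidermis (IFE) cells of homeostatic mouse skin. The mice were 15-week-old conditional knockouts (cKO) or wild type (WT) for G9a, a histone methyltransferase of lysine 9 on H3 that is encoded by Ehmt2. The arrays fell into 4 groups: bulge cKO (n = 4), bulge WT (n = 3), IFE cKO (n = 4) and IFE WT (n = 3). The labels name neither the Cre driver nor the way cells were separated. They leave it unsaid if each replicate was an animal of its own, so p-values measure only the spread between these samples.

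Values are log2 signals per probe set, and each gene is represented by its probe set with the highest mean over the 14 arrays. Array medians lay between 5.76 and 5.84, and arrays of the same group correlated at 0.9845 to 0.9975. One Ehmt2 probe set read 5.85 to 6.09 on the 8 cKO arrays and 9.51 to 9.78 on the 6 WT arrays, while another read 7.84 to 8.03 on cKO arrays and 7.84 to 8.05 on WT arrays. The bulge stem cell marker Cd34 was at 9.84 to 11.18 in bulge cKO and 10.93 to 11.43 in bulge WT, against 5.10 to 6.65 in IFE cKO and 5.0 to 5.12 in IFE WT. Replicates 2 and 3 of IFE cKO stood apart in Cd34, at 6.65 and 6.53.

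As background, a cell that commits to division first switches on E2F target genes for licensing replication origins, for making nucleotides and for copying DNA. Before entering mitosis it switches on a later set, which includes cyclins A and B, mitotic kinases, spindle motors and 2 partners of the anaphase-promoting complex, Cdc20 and Ube2c. Many promoters of that set carry a CHR element and CCAAT boxes bound by the DREAM and MuvB complexes and by NF-Y. Bulge stem cells of the hair follicle are known for dividing rarely while the follicle rests, and basal cells of the IFE divide steadily to renew the skin surface. In RNA from many cells, fewer cycling cells and less RNA per cycling cell cannot be told apart.

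Promoters are shown for Cdc20 and Ccnb2, whose compartment differences in WT were the largest among the members, for the licensing gene Mcm2 and the replication clamp gene Pcna, and for Rrm2, which did not follow them. Each is the 250 bases before the annotated start in RefSeq (GRCm38.p6), 5′ to 3′ on the gene's strand. Capitals mark a CHR (TTTGAA or TTCGAA) or a CCAAT box (CCAAT), each on either strand. Rrm2 aside, the choice was limited to members with a single promoter entry and a CHR, CCAAT box or E2F site (letters given below). Among these, the genes shown had the smallest p between compartments in WT. A motif in their windows was thus fixed by the choice, and Cdt1, which held none of the 3, was passed over for Mcm2. Cdc20 lies at chr4:118437344-118437593 (minus strand), Ccnb2 at chr9:70421555-70421804 (minus), Mcm2 at chr6:88898781-88899030 (minus), Pcna at chr2:132253181-132253430 (minus) and Rrm2 at chr12:24708004-24708253 (plus).
Cdc20: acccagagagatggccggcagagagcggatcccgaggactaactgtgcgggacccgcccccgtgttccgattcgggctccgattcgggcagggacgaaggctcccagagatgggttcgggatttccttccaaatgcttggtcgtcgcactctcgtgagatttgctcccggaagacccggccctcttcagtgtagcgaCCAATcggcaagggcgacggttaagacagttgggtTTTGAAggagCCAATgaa
Ccnb2: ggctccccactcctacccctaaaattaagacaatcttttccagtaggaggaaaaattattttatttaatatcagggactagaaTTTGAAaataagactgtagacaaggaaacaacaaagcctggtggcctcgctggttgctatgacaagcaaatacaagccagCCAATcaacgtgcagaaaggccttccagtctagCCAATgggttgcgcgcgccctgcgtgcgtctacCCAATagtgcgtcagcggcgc
Mcm2: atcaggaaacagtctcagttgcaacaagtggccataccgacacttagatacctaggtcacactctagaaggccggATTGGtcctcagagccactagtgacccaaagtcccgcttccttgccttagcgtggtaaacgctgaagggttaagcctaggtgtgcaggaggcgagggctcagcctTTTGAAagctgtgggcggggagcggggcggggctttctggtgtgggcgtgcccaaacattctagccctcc
Pcna: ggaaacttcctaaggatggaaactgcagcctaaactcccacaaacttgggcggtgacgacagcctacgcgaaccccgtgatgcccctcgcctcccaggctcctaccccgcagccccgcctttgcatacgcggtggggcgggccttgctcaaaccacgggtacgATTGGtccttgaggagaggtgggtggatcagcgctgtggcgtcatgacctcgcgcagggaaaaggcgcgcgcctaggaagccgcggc
Rrm2: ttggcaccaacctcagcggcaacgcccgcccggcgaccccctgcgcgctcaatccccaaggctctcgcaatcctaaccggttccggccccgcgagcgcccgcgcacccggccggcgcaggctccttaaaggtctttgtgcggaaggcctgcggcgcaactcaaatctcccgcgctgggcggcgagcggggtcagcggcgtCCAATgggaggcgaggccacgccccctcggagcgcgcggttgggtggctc

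The Cdc20 window held a CHR 18 bases before the start with CCAAT boxes at 53 and 8, and the Ccnb2 window a CHR at 167 with CCAAT boxes at 87, 54 and 21. Mcm2 had a CHR at 70 and a reversed CCAAT box at 175. Pcna had a single reversed CCAAT box, at 87, and Rrm2 a single CCAAT box, at 50. Promoters were at hand for 32 of the 39 members. A CHR together with a CCAAT box occurred in 10 of these 32 (31.2%), against 6.82% of the 13605 tested genes with a promoter. By role, this pair was in 8 of 18 G2 and mitosis genes and in 2 of 14 G1/S and replication genes. An E2F site (TTTGGCGC, TTTCCCGC, TTTGGCGG, TTTCGCGC or TTTGGGCG, either strand) was in 2 of 18 G2 and mitosis genes and in 5 of 14 G1/S and replication genes, and in 3.94% of tested genes. The shorter core GGCGG, which can lie inside TTTGGCGG and is not in capitals above, was in 27 of 32 members and in 68.4% of tested genes. These matches describe letters in the window and are not evidence of binding.

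On single arrays the members moved together, most of all the 22 genes of G2 and mitosis. Their mean log2 signal was 6.88, 6.94, 7.04 and 6.56 in bulge cKO and 6.52, 6.56 and 6.95 in bulge WT. In IFE it was 7.38, 7.23, 7.31 and 8.05 in cKO and 8.07, 8.08 and 7.12 in WT. Every IFE array was above every bulge array of either genotype, but within IFE the genotypes crossed: replicate 4 of cKO read like replicates 1 and 2 of WT, and replicate 3 of WT was the lowest of the 7 IFE arrays. The 17 genes of G1/S and replication had a narrower span, with means of 7.14, 7.03, 7.12 and 7.0 in bulge cKO and 7.14, 7.06 and 7.22 in bulge WT. In IFE their means were 7.43, 7.30, 7.43 and 7.73 in cKO and 7.58, 7.79 and 7.36 in WT. The mean over all genes tested stayed between 6.53 and 6.60 on the 14 arrays.

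**Figure D1:**
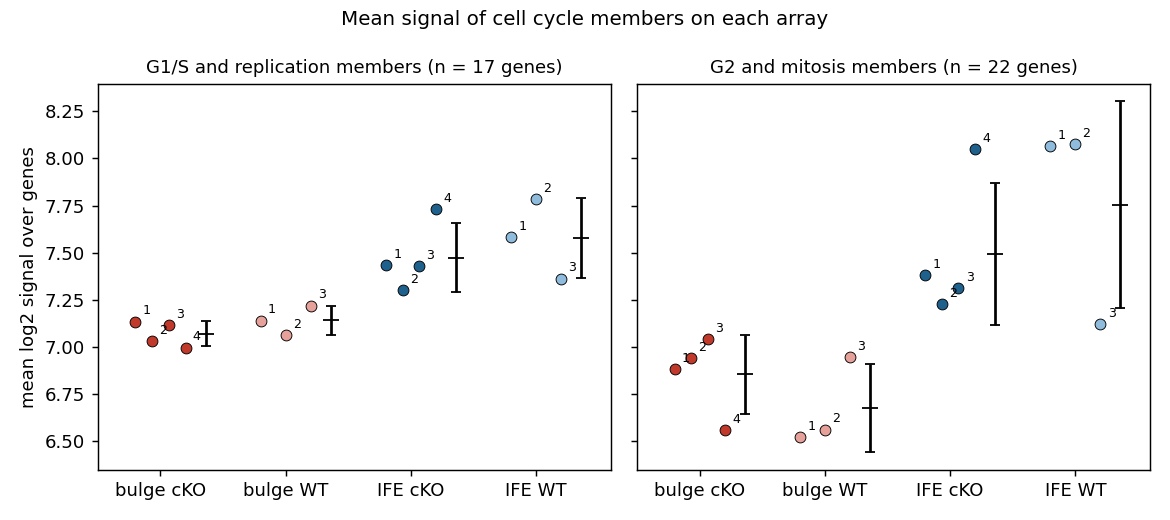
Mean log2 signal (y axis) of the G1/S and replication genes (left) and the G2 and mitosis genes (right) on each array; points are arrays with their replicate number, and bars are the group mean ± SD. All bulge points lie below all IFE points in each panel, and the IFE points of cKO and WT overlap, with cKO replicate 4 at 8.05 and WT replicate 3 at 7.12 for the mitotic genes.

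The same arrays were extreme gene by gene. Replicate 4 was the highest of the IFE cKO arrays in 35 of 39 members (89.7%), against 30.4% of all genes, and replicate 3 was the lowest of the IFE WT arrays in 35 members (89.7%), against 42.6% of all genes. In bulge, replicate 4 was the lowest cKO array in 29 members (74.4%, against 34.0% of all genes), and replicate 3 was the highest WT array in 31 (79.5%, against 34.5%). The median SD of the G2 and mitosis genes within a group was 0.19 in bulge cKO, 0.24 in bulge WT, 0.40 in IFE cKO and 0.58 in IFE WT. Over all genes it was 0.11, 0.08, 0.09 and 0.10 in the same order of groups. In the heat map of all members, IFE cKO replicate 4 was above the gene's mean over all arrays for 22 of 22 mitotic genes, while IFE WT replicate 3 was below it for 15 of 22.

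**Figure D2:**
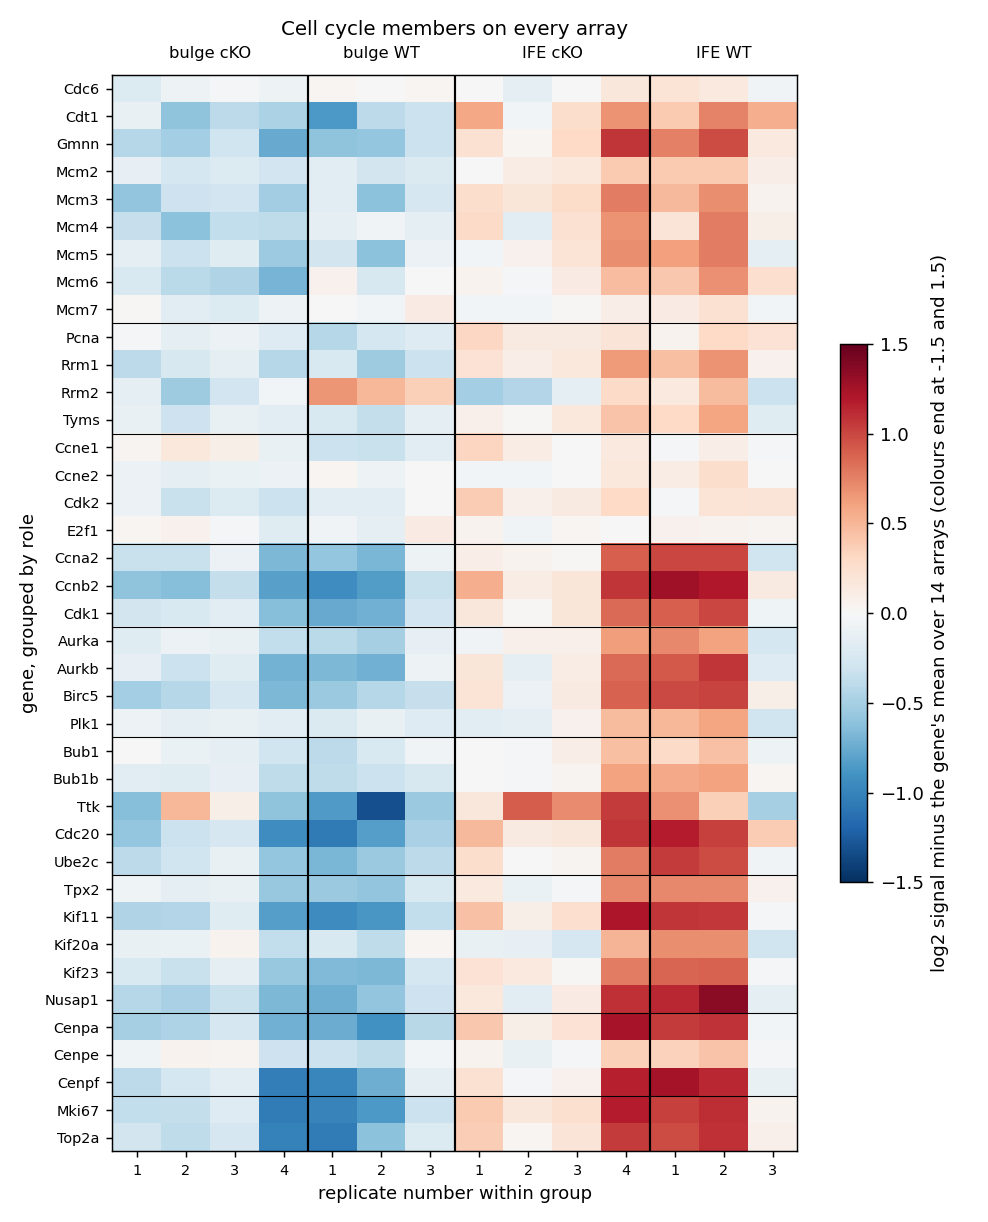
Log2 signal of each of the 39 members (rows, grouped by role) on the 14 arrays (columns, by group and replicate number), as the difference from the gene's mean over all arrays. Bulge columns are mostly blue, and IFE cKO replicate 4 and IFE WT replicates 1 and 2 are the darkest red. IFE cKO replicate 2 and IFE WT replicate 3 are pale and mixed, with 11 and 15 of the 22 mitotic genes below their mean.

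Other cell type markers also varied between these arrays. The mean of 6 suprabasal and cornified layer genes was 7.22, 9.07, 8.68 and 8.25 in bulge cKO and 7.28, 6.61 and 6.95 in bulge WT. It was 8.59, 9.12, 9.07 and 8.68 in IFE cKO and 8.63, 7.97 and 8.23 in IFE WT. The mean of 6 bulge stem cell genes was 10.46, 9.72, 9.88 and 10.64 in bulge cKO, against 10.79 to 10.89 in bulge WT, and 7.90 and 7.88 on IFE cKO replicates 2 and 3, against 7.20 to 7.23 on the other IFE arrays. The mean of 5 Langerhans and antigen presenting cell genes ran from 6.36 to 7.28 in bulge cKO and from 5.70 to 5.94 in bulge WT, and that of 5 T cell genes from 5.52 to 6.67 in bulge cKO and from 5.22 to 5.54 in bulge WT. Between bulge cKO and bulge WT, where 3.84% of all genes changed, 3 of the 5 Langerhans and antigen presenting cell genes rose, namely Cd74, H2-Eb1 and H2-Ab1 of MHC class II antigen presentation, while the Langerhans marker Cd207 did not pass (0.56, limma adjusted p = 0.125). The suprabasal gene Casp14, the hair keratin Krt31 and the endothelial gene Emcn also rose, the basal integrin Itgb4 fell, and 0 of the T cell and bulge stem cell genes passed. These calls did not hold throughout: with each of the 14 arrays left out in turn, H2-Ab1 passed in 12 fits, H2-Eb1 in 11, Cd74 in 10, Casp14 and Emcn in 5, Itgb4 in 4 and Krt31 in 2. The arrays that were extreme in cell cycle genes, IFE cKO replicate 4 and IFE WT replicate 3, had suprabasal means of 8.68 and 8.23, inside the range of the other IFE arrays. For 4 basal keratinocyte genes the means were 11.54, 11.48, 11.52 and 11.68 in IFE cKO and 11.73, 11.74 and 11.64 in IFE WT. In that list, cKO replicate 4 was the highest and WT replicate 3 the lowest array of its group. The part of these markers in the results below was not tested.

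In the comparison of compartments, cell cycle genes were lower in bulge than in IFE in both genotypes. A gene is said to have fallen or risen where limma's adjusted p was under 0.05 over all genes. In cKO, 17 of 39 members fell and 0 rose, where 14.6% of all genes fell. In WT, 30 of 39 fell and 0 rose, where 16.6% of all genes fell. All bulge arrays lay below all IFE arrays for 27 members in cKO and 25 in WT, where 15% and 23.7% of all genes did. The median log2 difference of the members was -0.58 in cKO and -0.75 in WT, against 0.03 and -0.01 over all genes. Of all genes, 3007 rose and 2489 fell in cKO, and 3152 rose and 2846 fell in WT, a split that changed to 2045 and 3118 in cKO and 2730 and 3695 in WT with arrays centred on their medians, while still no member rose. The WT comparison was known to lower proliferation genes in bulge from an earlier look at these data, so it serves as a base and not as new evidence.

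The count in cKO rested on single arrays: 11 members fell without replicate 4 of IFE cKO and 26 without replicate 3 of IFE WT, which enters through the shared spread. In WT, 18 fell without replicate 2 of IFE WT and 19 without replicate 2 of bulge WT. With each array left out in turn, 11 members fell every time in cKO, namely Ccnb2, Cdc20, Cdk2, Cdt1, Gmnn, Mcm2, Mcm3, Mcm4, Mcm6, Pcna and Rrm1. In WT, 18 did, among them Cdc20, Ccnb2, Cdk1, Mki67, Birc5, Pcna, Mcm2 and Cdt1. How many of all genes fell in these fits is not given here. The swings between fits are thus not shown to be particular to the members.

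The licensing genes fell in 6 of 9 cases in cKO and in 6 of 9 in WT. They encode subunits of the replicative helicase, factors that load it onto origins and an inhibitor of loading. Mcm3, a subunit of the MCM helicase, read 6.98, 7.25, 7.29 and 7.05 in bulge cKO and 7.83, 7.75, 7.84 and 8.34 in IFE cKO. In WT it read 7.41, 6.96 and 7.32 in bulge and 8.06, 8.27 and 7.62 in IFE. The compartments did not overlap in either genotype, and Mcm3 was lower in bulge by a log2 difference of -0.80 in cKO (SE 0.16, limma adjusted p = 0.00316) and -0.75 in WT (SE 0.19, limma adjusted p = 0.0074).

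Cdt1, which brings the helicase to origins, read 8.18, 7.69, 7.90 and 7.82 in bulge cKO and 8.87, 8.26, 8.56 and 8.97 in IFE cKO, and in WT 7.43, 7.91 and 7.98 in bulge and 8.69, 9.04 and 8.85 in IFE. Its difference was -0.77 in cKO (limma adjusted p = 0.00506) and -1.09 in WT (limma adjusted p = 0.00101). Geminin (Gmnn), the inhibitor of Cdt1, fell beside it, with 5.65, 5.57, 5.78 and 5.32 in bulge cKO and 6.31, 6.11, 6.38 and 7.15 in IFE cKO, and with 5.48, 5.50 and 5.76 in bulge WT and 6.84, 7.06 and 6.22 in IFE WT. Its difference was -0.91 in cKO and -1.13 in WT.

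Mcm2 was at 6.20 to 6.36 in bulge cKO and 6.49 to 6.88 in IFE cKO, and at 6.22 to 6.32 in bulge WT and 6.59 to 6.88 in IFE WT. Mcm6 was at 6.43 to 6.90 in bulge cKO and 7.10 to 7.59 in IFE cKO, and at 6.89 to 7.19 in bulge WT and 7.37 to 7.81 in IFE WT. Neither gene's compartments overlapped in either genotype, and both fell in cKO and in WT. Mcm4 passed the test in cKO (-0.69, limma adjusted p = 0.00929) and not in WT (-0.47, limma adjusted p = 0.0853), and Mcm5 in WT (-0.74, limma adjusted p = 0.0307) and not in cKO (-0.53, limma adjusted p = 0.0726).

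The other licensing genes did not separate the compartments. Mcm7 was at 7.19 to 7.41 in bulge cKO and 7.35 to 7.49 in IFE cKO, and at 7.35 to 7.52 in bulge WT and 7.35 to 7.62 in IFE WT. Cdc6, the loader of the helicase, was at 4.00 to 4.18 in bulge cKO and 4.06 to 4.37 in IFE cKO, and at 4.20 to 4.23 in bulge WT and 4.15 to 4.41 in IFE WT. Cdc6 lay below the array median on every array, as did Ccne2 and Bub1.

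Of the 4 fork and nucleotide genes, 2 fell in cKO and 3 in WT. Pcna, the sliding clamp of the DNA polymerases, fell in both genotypes. It read 10.45, 10.35, 10.39 and 10.29 in bulge cKO and 10.80, 10.62, 10.62 and 10.68 in IFE cKO, and 10.05, 10.22 and 10.29 in bulge WT and 10.54, 10.79 and 10.70 in IFE WT. The compartments did not overlap, with a 1.24-fold lower signal in cKO (log2 difference -0.31, SE 0.07, limma adjusted p = 0.00508) and a 1.41-fold lower one in WT (-0.49, SE 0.08, limma adjusted p = 0.00048). Rrm1, the large subunit of ribonucleotide reductase, was at 8.38 to 8.67 in bulge cKO and 8.90 to 9.45 in IFE cKO, and at 8.27 to 8.58 in bulge WT and 8.87 to 9.47 in IFE WT. It fell by 0.58 in cKO and by 0.76 in WT.

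Rrm2, the small subunit of the same enzyme, did not follow Rrm1. It read 8.32, 7.94, 8.18 and 8.43 in bulge cKO and 7.95, 8.03, 8.34 and 8.75 in IFE cKO, so that bulge minus IFE was -0.05 (SE 0.19, limma adjusted p = 0.865). In WT it read 9.13, 8.97 and 8.82 in bulge and 8.61, 8.94 and 8.14 in IFE, a difference of 0.41 (SE 0.22, limma adjusted p = 0.185). The compartments overlapped in both genotypes, and Rrm2 was the member with a positive difference in WT: the other 38 were negative in both genotypes, where 42.4% of all genes were below 0 in cKO and 52.8% in WT.

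Of the 4 G1/S regulators, 1 fell in cKO and 1 in WT. Cdk2, the kinase partner of the E cyclins, read 7.77, 7.53, 7.66 and 7.54 in bulge cKO and 8.25, 7.94, 8.00 and 8.17 in IFE cKO, without overlap (log2 difference -0.46, SE 0.08, limma adjusted p = 0.00155). In WT it read 7.69, 7.70 and 7.86 in bulge and 7.85, 8.07 and 8.06 in IFE, where 1 bulge array lay above the lowest IFE array (-0.24, limma adjusted p = 0.0666). Cyclin E1 (Ccne1) read 6.54, 6.32, 6.21 and 6.37 in IFE cKO and 6.20, 6.32 and 6.20 in IFE WT, and its bulge values are given below. It fell in WT (-0.29, limma adjusted p = 0.0213), while its cKO difference was -0.10 (limma adjusted p = 0.349). E2f1, an activator of the genes above, was at 6.37 to 6.61 in bulge cKO and 6.49 to 6.60 in IFE cKO, and at 6.41 to 6.67 in bulge WT and 6.58 to 6.61 in IFE WT, with the compartments overlapping. Ccne2 was at 3.70 to 3.74 in bulge cKO and 3.78 to 3.99 in IFE cKO, and at 3.76 to 3.85 in bulge WT and 3.82 to 4.09 in IFE WT. It differed by -0.12 in cKO and -0.14 in WT without passing the test.

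Among the G2 and mitosis genes, 8 of 22 fell in cKO and 20 of 22 in WT, with median differences of -0.63 and -1.13. For the G1/S and replication genes these were 9 of 17 and 10 of 17, with medians of -0.38 and -0.48. Whether the counts differ between the genotypes is addressed gene by gene by the difference of effects below, where no member passed.

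Of the 3 later cyclin and kinase genes, 1 fell in cKO and 3 in WT. Cyclin B2 (Ccnb2), a partner of the mitotic kinase, read 6.06, 6.02, 6.30 and 5.85 in bulge cKO and 7.21, 6.77, 6.84 and 7.73 in IFE cKO. In WT it read 5.73, 5.83 and 6.33 in bulge and 7.93, 7.86 and 6.79 in IFE. The signal in bulge was 2.11-fold lower in cKO (-1.08, SE 0.27, limma adjusted p = 0.00913) and 2.96-fold lower in WT (-1.57, SE 0.31, limma adjusted p = 0.00178), without overlap.

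Cdk1, that kinase, was at 7.91, 7.96, 8.02 and 7.56 in bulge cKO and 8.36, 8.21, 8.37 and 9.04 in IFE cKO, and at 7.43, 7.48 and 7.91 in bulge WT and 9.09, 9.20 and 8.13 in IFE WT. The arrays did not overlap in either genotype, yet the difference of -0.63 in cKO missed the threshold (SE 0.24, limma adjusted p = 0.0616), while that of -1.20 in WT passed it (SE 0.28, limma adjusted p = 0.00483). Cyclin A2 (Ccna2) differed by -0.62 in cKO (limma adjusted p = 0.125) and fell by 1.01 in WT.

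Cdc20, the activator of the anaphase-promoting complex, had the largest difference of the members in WT. It read 7.94, 8.19, 8.26 and 7.59 in bulge cKO and 9.0, 8.65, 8.69 and 9.58 in IFE cKO, and 7.46, 7.69 and 8.03 in bulge WT and 9.69, 9.54 and 8.90 in IFE WT. The compartments did not overlap, and bulge was 1.98-fold lower in cKO (-0.99, SE 0.24, limma adjusted p = 0.00808) and 3.14-fold lower in WT (-1.65, SE 0.27, limma adjusted p = 0.000604). It was the 1 checkpoint and APC/C gene of 5 that fell in cKO, while 5 of 5 fell in WT.

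Ube2c, the ubiquitin-conjugating enzyme of that complex, was at 8.17 to 8.64 in bulge cKO and 8.74 to 9.52 in IFE cKO (-0.61, limma adjusted p = 0.0619), and at 8.06 to 8.37 in bulge WT and 8.70 to 9.80 in IFE WT (-1.20, limma adjusted p = 0.00387). The checkpoint kinase gene Bub1b was at 6.58 to 6.84 in bulge cKO and 6.94 to 7.57 in IFE cKO (-0.37, limma adjusted p = 0.0818), and at 6.59 to 6.73 in bulge WT and 7.0 to 7.58 in IFE WT (-0.72, limma adjusted p = 0.00641). As with Cdk1, the cKO arrays of both genes were apart by compartment without passing the test.

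Of the mitotic kinases and the chromosomal passenger complex, 1 of 4 genes fell in cKO and 3 of 4 in WT. Survivin (Birc5), a passenger subunit, was at 6.49 to 6.91 in bulge cKO and 7.07 to 8.04 in IFE cKO (-0.75, limma adjusted p = 0.0229), and at 6.60 to 6.81 in bulge WT and 7.25 to 8.17 in IFE WT (-1.14, limma adjusted p = 0.00418). Plk1, a kinase of mitotic entry and spindle assembly, overlapped between compartments, at 7.36 to 7.45 in bulge cKO and 7.36 to 8.00 in IFE cKO, and at 7.31 to 7.42 in bulge WT and 7.22 to 8.12 in IFE WT. The kinases Aurka and Aurkb fell in WT, by 0.70 and 1.09, and differed by -0.37 and -0.58 in cKO without passing.

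Spindle and kinesin genes fell in 2 of 5 cases in cKO and 4 of 5 in WT. Kif23, a kinesin of the central spindle, was at 5.12 to 5.55 in bulge cKO and 5.71 to 6.46 in IFE cKO (-0.61, limma adjusted p = 0.0447), and at 5.01 to 5.43 in bulge WT and 5.68 to 6.57 in IFE WT (-1.11, limma adjusted p = 0.00361). Kif11, the motor that pushes spindle poles apart, also fell in both, by 0.97 and 1.43. Kif20a, needed for cytokinesis, overlapped, at 7.10 to 7.52 in bulge cKO and 7.22 to 7.98 in IFE cKO, and at 7.09 to 7.50 in bulge WT and 7.17 to 8.17 in IFE WT. Among the 3 centromere genes, Cenpa, the centromeric histone H3 variant, fell by 0.97 in cKO and by 1.39 in WT, and Cenpe and Cenpf fell in WT.

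The proliferation marker Mki67 read 8.03, 8.05, 8.21 and 7.35 in bulge cKO and 8.80, 8.57, 8.65 and 9.58 in IFE cKO, and 7.40, 7.54 and 8.09 in bulge WT and 9.43, 9.51 and 8.46 in IFE WT. The compartments did not overlap, and bulge was 1.98-fold lower in cKO (-0.99, SE 0.29, limma adjusted p = 0.0217) and 2.75-fold lower in WT (-1.46, SE 0.34, limma adjusted p = 0.00473). In cKO the adjusted p was 0.0574 without replicate 4 of bulge cKO and 0.0655 without replicate 4 of IFE cKO. Top2a, the topoisomerase that untangles mitotic chromosomes, fell in both genotypes too, by 0.89 and 1.34.

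**Figure D3:**
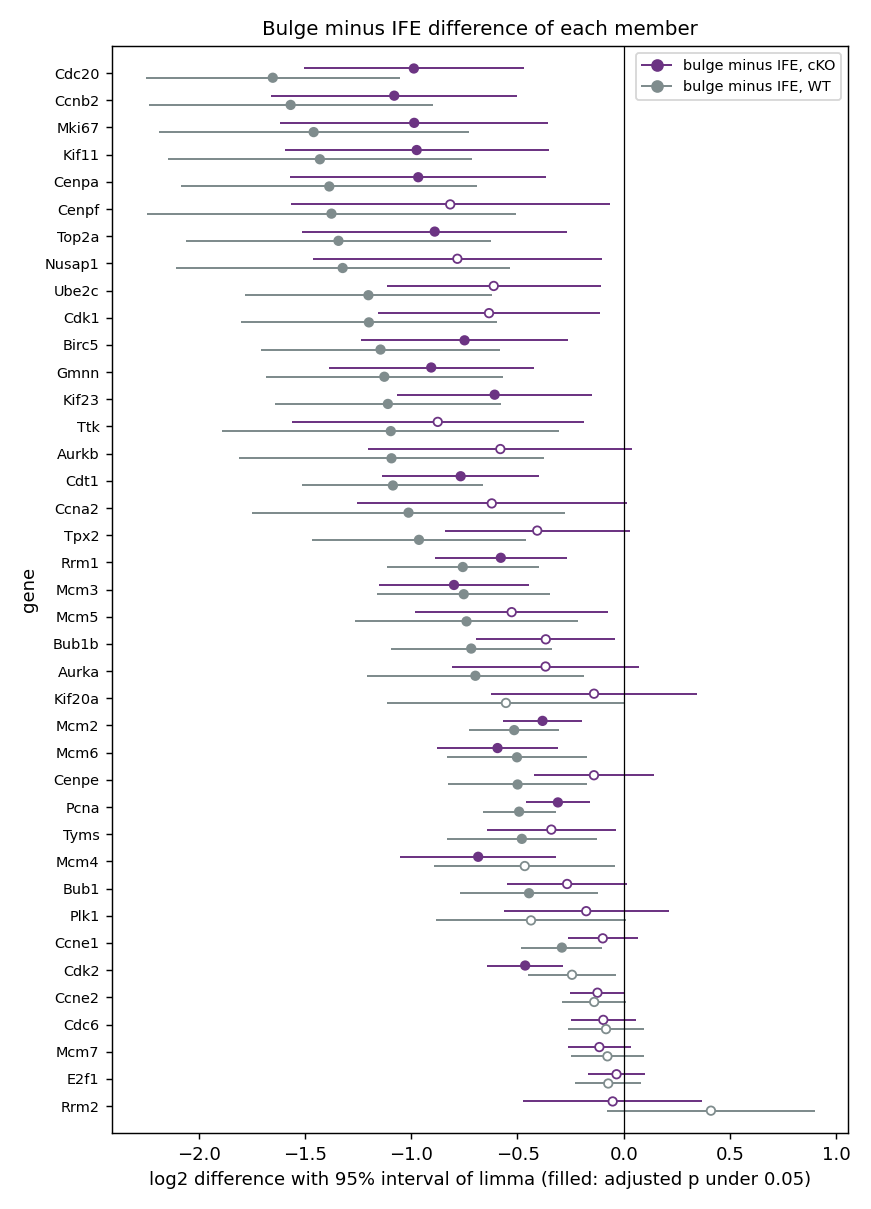
Bulge minus IFE log2 difference (x axis, with limma's 95% interval) of each member (y axis) in cKO and in WT; filled points have an adjusted p under 0.05. Filled points lie left of 0, 17 in cKO and 30 in WT, and Rrm2 alone lies right of 0 in WT, at 0.41.

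The calls of the genotypes overlapped in 15 genes, which is 88.2% of those called in cKO and 50% of those called in WT. The same overlap over all genes was not counted. Cdk2 and Mcm4 were called in cKO alone, and Ccne2, Cdc6, E2f1, Kif20a, Mcm7, Plk1 and Rrm2 in neither. For 33 of 39 members the size of the compartment difference was smaller in cKO than in WT, and the share over all genes was not counted. Marker lists outside the module also differed less in cKO. The mean of bulge stem cell genes differed by 2.63 in cKO and 3.62 in WT, and that of suprabasal genes by -0.56 and -1.33. The endothelial and melanocyte lists went the other way. The mean of all members differed between bulge and IFE by -0.54 in cKO and -0.80 in WT, and these values ran from -0.61 to -0.39 in cKO and from -1.02 to -0.66 in WT with each array left out in turn.

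Between bulge cKO and bulge WT no member passed the threshold: 0 of 39 rose and 0 fell by limma's test, where 3.84% of all genes changed. At an unadjusted p under 0.05 there were 5 members, Ccne1, Rrm2, Mcm6, Pcna and Ttk, where 25.7% of all genes reached it. The members' median SE was 0.22, against 0.08 over all genes, so equal differences reached such a p less often among members. The members' median log2 difference, cKO minus WT, was 0.09, against 0.01 over all genes. It was -0.01 for the G1/S and replication genes and 0.16 for the G2 and mitosis genes, of which 21 of 22 were positive. Of all 39, 12 were below 0, where 46.2% of all genes were. The sizes were under 0.5 for 37 of 39 members, and 37 of the 95% intervals lay within 1 log2 unit of 0 on either side.

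The arrays of the genotypes stood apart in bulge for 1 member higher and 4 lower in cKO, where 10.5% and 8.05% of all genes did. Ccne1 was the higher one, with 6.26, 6.38, 6.30 and 6.11 in bulge cKO, against 5.90, 5.89 and 6.06 in bulge WT. Its difference was 0.31 (SE 0.08, 95% interval 0.13 to 0.49, limma adjusted p = 0.0543). Rrm2 was lower, with 8.32, 7.94, 8.18 and 8.43 in bulge cKO against 9.13, 8.97 and 8.82 in bulge WT, a difference of -0.76 (SE 0.21, 95% interval -1.21 to -0.30, limma adjusted p = 0.0621). Its other probe set gave -0.79. Single arrays decided on which side of the threshold both lay: without replicate 4 of bulge cKO the adjusted p of Ccne1 was 0.0182 and that of Rrm2 0.0353. Ccne1 also passed without replicate 3 of bulge WT (0.0487) or replicate 1 of IFE cKO (0.0434), and Rrm2 without replicate 4 of IFE cKO (0.0491) or replicate 3 of IFE WT (0.0469). Other omissions moved both genes away from the threshold. Without replicate 1 of bulge WT, limma's adjusted p was 0.187 for Ccne1 and 0.213 for Rrm2. Without replicate 2 of bulge WT it was 0.192 and 0.184, and without replicate 2 of bulge cKO 0.148 and 0.168. The other members that stood apart, all lower in cKO, were Mcm4 (-0.31, limma adjusted p = 0.294), Cdc6 (-0.11, limma adjusted p = 0.371) and Ccne2 (-0.09, limma adjusted p = 0.418). Of these, Cdc6 and Ccne2 were dim, below the array median on every array.

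Mcm6 was lower in bulge cKO by -0.38 (6.90, 6.73, 6.68 and 6.43, against 7.19, 6.89 and 7.13 in bulge WT, limma adjusted p = 0.122), and 1 cKO array lay above the lowest WT array. Pcna was higher by 0.18 (limma adjusted p = 0.149), with bulge cKO at 10.29 to 10.45 and bulge WT at 10.05 to 10.29. The spindle checkpoint kinase Ttk, singled out after its values were seen, had the largest positive difference, 0.75 (SE 0.34, limma adjusted p = 0.193). It read 6.54, 7.68, 7.28 and 6.59 in bulge cKO and 6.33, 5.87 and 6.63 in bulge WT, with replicates 2 and 3 of cKO high, the same arrays that had the highest suprabasal and lowest bulge stem cell means. Its other probe set differed by 0.14.

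Among well-known markers of division in bulge, Mki67 differed by 0.24 (SE 0.31, limma adjusted p = 0.653), Cdk1 by 0.26 (limma adjusted p = 0.543) and Cdc20 by 0.27 (limma adjusted p = 0.526), with cKO and WT arrays overlapping for each. The bulge cKO array with the lowest Mki67, replicate 4 at 7.35, lay below the lowest bulge WT array, at 7.40.

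In IFE, 0 of 39 members rose and 0 fell in cKO by limma's test, where 0.497% of all genes changed, and 0 members reached an unadjusted p under 0.05, against 11% of all genes. The members' median SE was again 0.22, against 0.08 over all genes. Their median difference was -0.21, with 35 of 39 differences below 0, where 54.8% of all genes were below 0 with a median of -0.01. It was -0.10 for the G1/S and replication genes and -0.30 for the G2 and mitosis genes. No member had cKO and WT arrays that stood apart, where 11% of all genes did in either direction. The smallest p-values belonged to Mcm6 (-0.29, SE 0.14, limma adjusted p = 0.481), Birc5 (-0.42, SE 0.24, limma adjusted p = 0.583), Ube2c (-0.39, SE 0.25, limma adjusted p = 0.635) and Bub1b (-0.25, SE 0.16, limma adjusted p = 0.635).

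The Birc5 arrays show the pattern, at 7.36, 7.07, 7.30 and 8.04 in IFE cKO and 8.15, 8.17 and 7.25 in IFE WT: 3 cKO arrays and 1 WT array were low, and 1 cKO and 2 WT arrays high. Ube2c repeated it, at 9.01, 8.74, 8.80 and 9.52 in IFE cKO and 9.80, 9.73 and 8.70 in IFE WT, as did Bub1b, at 6.96, 6.94, 7.01 and 7.57 in IFE cKO and 7.54, 7.58 and 7.0 in IFE WT. The mean of all members was 7.49 ± 0.29 in IFE cKO (SD, n = 4) and 7.68 ± 0.39 in IFE WT (SD, n = 3). That difference of -0.19 became -0.42 without replicate 3 of WT, -0.33 without replicate 4 of cKO and -0.06 without replicate 2 of WT. Pcna did not follow this order, at 10.80, 10.62, 10.62 and 10.68 in IFE cKO and 10.54, 10.79 and 10.70 in IFE WT, a difference of 0.00118 (limma adjusted p = 0.998).

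**Figure D4:**
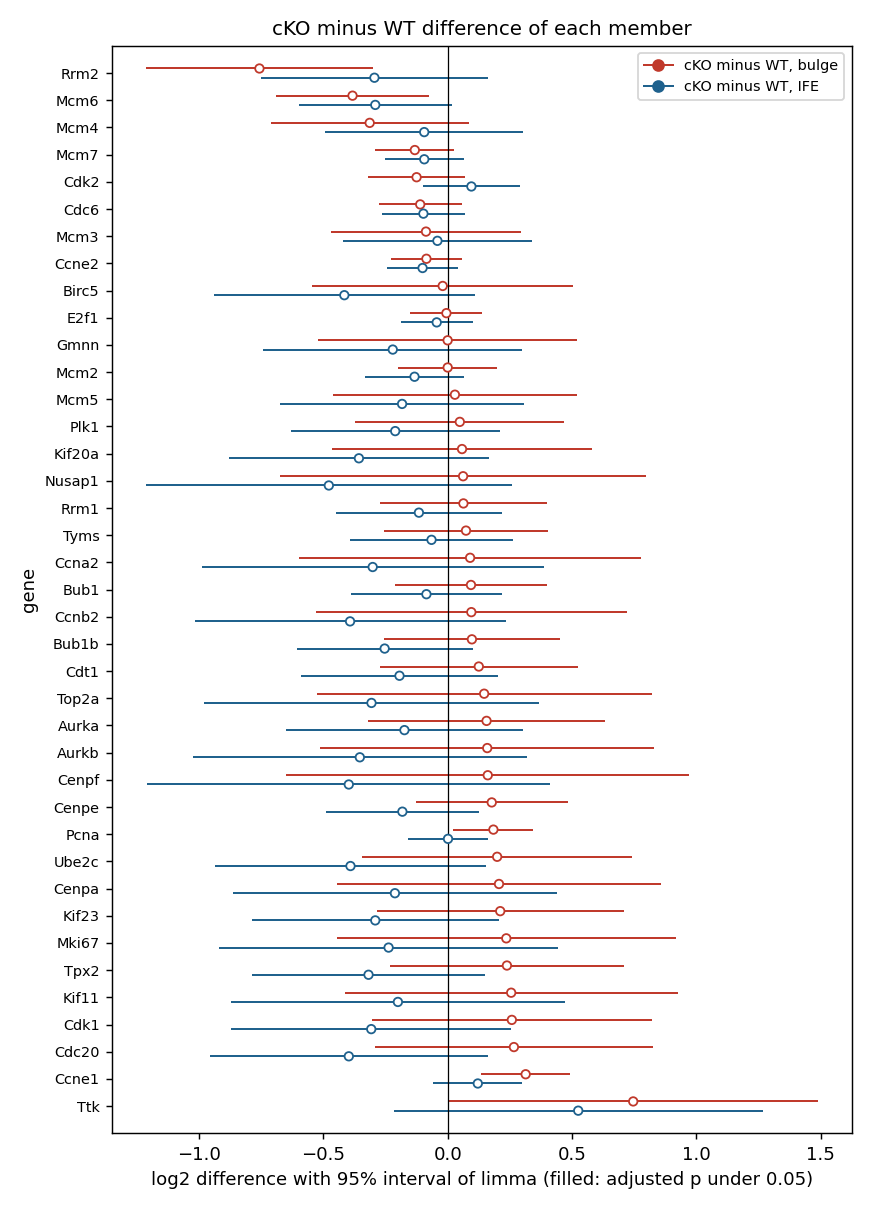
cKO minus WT log2 difference (x axis, with limma's 95% interval) of each member (y axis) in bulge and in IFE; open points have an adjusted p of at least 0.05. No point is filled; Rrm2 lies farthest left in bulge at -0.76 and Ttk farthest right at 0.75, and 21 of 22 G2 and mitosis genes lie right of 0 in bulge and 21 of 22 left of 0 in IFE.

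The effect of the knockout had opposite signs in bulge and IFE for 25 of 39 members, and the share over all genes was not counted. Tested directly, as the cKO effect in bulge minus that in IFE, 0 members passed, where 0.105% of all genes did, and 0 had an unadjusted p under 0.05, against 14.1% of all genes. The members' median SE here was 0.31, against 0.11 over all genes. The median of this difference of effects was 0.32 over the members, against 0.02 over all genes, and 7 of 39 lay below 0, where 43.8% of all genes did. All 22 G2 and mitosis genes were above 0 (median 0.45, and 0.04 for the G1/S and replication genes). Cdc20 (0.66, SE 0.36, limma adjusted p = 0.425) and Tpx2, a spindle assembly factor (0.56, SE 0.31, limma adjusted p = 0.425), were among those with the smallest p. The 95% intervals reached a median of 0.664 to either side of the estimate, and 20 of 39 lay within 1 log2 unit of 0 on either side, so a difference of that size was within the interval for the rest. For 3 members, Ttk, Nusap1 and Cenpf, the interval reached over 1 to either side of the estimate. This contrast is by construction also the compartment difference in cKO minus that in WT.

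For most members a further probe set could be set beside the chosen one: 29 others were at hand for 22 genes. They had the same sign as the chosen one in 26 of 29 cases for bulge against IFE in cKO and 25 of 29 in WT, and in 22 for the knockout effect in bulge and 18 in IFE. Of these others, 6 fell and 1 rose in bulge against IFE in cKO, and 13 fell and 0 rose in WT, where 32.3% and 34.9% of all probe sets passed. Some fell where the chosen probe set had not passed: Aurkb by a difference of -0.95 (limma adjusted p = 0.0376) and Cenpf by -0.55 (limma adjusted p = 0.0387) in cKO, and E2f1 by -0.33 (limma adjusted p = 0.0167) in WT. A dim probe set of thymidylate synthase (Tyms), with a mean of 4.83, rose in bulge cKO against WT by 0.15 (limma adjusted p = 0.0376 over all probe sets), where 3.65% of all probe sets changed and the chosen one differed by 0.07. Another Tyms probe set was higher in bulge than in IFE in cKO by 0.31 (limma adjusted p = 0.0283), against -0.34 for the chosen one (limma adjusted p = 0.0818).

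Regulators upstream of the module and other genes of the same processes were counted from lists of 122 genes, 116 of them measured. In bulge cKO against WT, 2 of these 116 passed, where 3.84% of all genes did: 1 of 5 G1 cyclins and kinases and 1 of 7 CDK inhibitors. Cyclin D1 (Ccnd1), which drives the exit from G1, fell, with 9.80, 10.00, 10.08 and 9.94 in bulge cKO against 10.38, 10.50 and 10.21 in bulge WT (-0.41, SE 0.08, limma adjusted p = 0.0246). The CDK inhibitor p21 (Cdkn1a) rose, with 10.80, 11.37, 11.22 and 10.70 in bulge cKO against 9.85, 10.27 and 10.50 in bulge WT (0.82, SE 0.18, limma adjusted p = 0.0324). The genotypes did not overlap for either gene. With each array left out in turn, Ccnd1 passed in 11 of 14 fits and Cdkn1a in 9, and so neither call held throughout. The adjusted p of Ccnd1 was 0.0548 without replicate 2 of bulge cKO, 0.102 without replicate 1 of bulge WT and 0.116 without replicate 2 of bulge WT. That of Cdkn1a was 0.0857 and 0.0991 without replicates 2 and 3 of bulge cKO, 0.145 and 0.0979 without replicates 1 and 2 of bulge WT, and 0.0509 without replicate 3 of IFE cKO. Cdkn1a was highest on bulge cKO replicates 2 and 3, which also had the highest suprabasal means.

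None of the 17 RB, E2F and MuvB factors, 39 other replication genes and 48 other mitotic genes passed in bulge cKO against WT, and none of the 116 passed in IFE or in the difference of effects. Nearest in IFE was Orc6, a subunit of the origin recognition complex, with 7.46, 7.21, 7.26 and 7.48 in IFE cKO against 7.67, 7.79 and 7.67 in IFE WT. Its arrays did not overlap (-0.36, SE 0.07, limma adjusted p = 0.054), unlike those of the members.

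Between compartments, 14.6% of all genes fell and 17.6% rose in bulge against IFE in cKO, and 16.6% fell and 18.4% rose in WT. Of the other mitotic genes, 18 of 48 fell and 1 rose in cKO, and 37 fell and 2 rose in WT. Stil, a centriole duplication factor, read 5.32, 5.48, 5.40 and 4.95 in bulge cKO and 7.26, 6.28, 6.68 and 7.13 in IFE cKO, and 4.82, 5.02 and 5.13 in bulge WT and 6.66, 6.87 and 7.22 in IFE WT. Stil fell, with a difference of -1.55 in cKO (limma adjusted p = 0.000299) and -1.93 in WT (limma adjusted p = 7.34e-05). Cks2, a CDK-binding subunit, fell too, by a difference of -1.27 in cKO and -2.28 in WT. Neither gene showed the low reading on replicate 3 of IFE WT that the members had, at 7.22 for Stil and at 9.56 for Cks2, whose other IFE WT arrays read 9.48 and 9.68.

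Of the other replication genes, 5 of 39 fell and 1 rose in cKO, a share of lower genes near that over all genes, and 11 fell and 3 rose in WT. The polymerase alpha gene Pola1 fell by 0.82 in cKO and 0.86 in WT, while the polymerase epsilon subunit gene Pole2 was higher in bulge by 0.99 in cKO (limma adjusted p = 0.0118) and 1.45 in WT (limma adjusted p = 0.0024). Among RB, E2F and MuvB factors, 7 of 17 fell and 1 rose in cKO, and 10 fell and 2 rose in WT. E2f8, a repressor of E2F targets, fell, with a difference of -0.80 in cKO and -1.57 in WT.

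Of 5 G1 cyclins and kinases, 3 fell and 0 rose in bulge against IFE in cKO, and 3 fell and 1 rose in WT. Of 7 CDK inhibitors, 2 fell and 1 rose in bulge against IFE in cKO, and 4 fell and 2 rose in WT. Cdkn1a read 11.02 ± 0.32 in bulge cKO (SD, n = 4) and 11.57 ± 0.12 in IFE cKO (SD, n = 4), and 10.20 ± 0.33 in bulge WT (SD, n = 3) and 11.46 ± 0.20 in IFE WT (SD, n = 3). It fell by 0.54 in cKO and by 1.26 in WT. p27 (Cdkn1b), an inhibitor linked to quiescence, went the other way, at 10.73, 10.09, 10.32 and 10.68 in bulge cKO and 9.87, 9.97, 10.16 and 10.23 in IFE cKO, and 10.76, 10.84 and 10.81 in bulge WT and 9.86, 9.99 and 9.46 in IFE WT. It rose in WT by 1.03 (SE 0.17, limma adjusted p = 0.00062), and in cKO it differed by 0.40 (SE 0.15, limma adjusted p = 0.0598), with 1 bulge array below the highest IFE arrays.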

How the data were processed

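Total RNA of 14 samples was turned into amplified cDNA and put, with a biotin label, on Affymetrix mouse arrays, per the labels' protocols. The authors deposited log2 signals for each probe set, made with RMA, per the submitters' processing notes. RMA removes background, gives all arrays the same distribution and combines a set's probes. Its version is not stated. The number of arrays limits the precision, and no batch is named in the labels.

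Of 45141 probe sets, 28898 had a single gene symbol through the platform annotation, 551 had several and 15692 had none. Symbols were updated by Entrez identifier for 28689 and kept for 209. The probe set with the highest mean stood for each of 17097 genes. In R 4.3.3, limma 3.58.1 fitted a mean per group to all arrays with lmFit and eBayes (residual degrees of freedom 10). Tests were two-sided, with the Benjamini-Hochberg adjustment over every gene tested and a threshold of 0.05. The script was tested on simulated data.

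Members, lists, tests and named genes were chosen with earlier results of these data known. Members given by array or by range were those with the smallest p in each comparison, those called in no compartment comparison, and fixed examples. The fixed examples were Mki67, Pcna, Cdk1, E2f1 and Ccnb1, of which Ccnb1 was not measured. Ttk was added after its values were seen. Of other lists, up to 3 called genes with the smallest p were given. The heat map shows the rest. The lists, each counted in the report, were G1 cyclins and kinases, CDK inhibitors, RB, E2F and MuvB factors, other replication genes and other mitotic genes. Alternatives were other scalings, a filter on dim genes, other choices of probe set, an intensity trend, array weights, groups fitted alone, replicate number as a block, and fits without single arrays.

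Deviations of samples with the same replicate number correlated at -0.616 to 0.2509. Between bulge and IFE these correlations were 0.2509, 0.03589 and 0.1437 in WT. In cKO they were -0.02851, 0.1103, -0.5699 and 0.1508. The Langerhans and antigen presenting cell means ranked the replicates alike in bulge cKO and IFE cKO, but not in WT. These values do not settle whether the numbers pair samples, since the labels do not name the animals. The reported fits treated the samples as unpaired.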

Additional observations from a re-analysis of the deposited data

Results flagged for a closer look

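In 54 sets of 4 arrays tested for a sample far from the rest, 2 had a gap between the extreme array and its neighbour, as a share of the group's range, over Dixon's 95% critical value. Chance flags about 1 in 20 such sets. Mcm3 in IFE cKO, with 7.83, 7.75, 7.84 and 8.34, had a gap of 0.851 of the range, and Bub1b in IFE cKO, with 6.96, 6.94, 7.01 and 7.57, a gap of 0.889. In both the high array was replicate 4, which was the highest IFE cKO array for 35 of 39 members. The cause was not tested.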

How the results depend on the processing

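No member that passed in the reported fits changed direction under the alternatives run. Members called in bulge cKO against WT numbered 1 with probe sets of a gene averaged (Ccne1) and 11 with array weights, in IFE cKO against WT 9 with array weights, and in the difference of effects 21 with array weights; bulge against IFE in cKO gave 26 with array weights. These weights ran from 0.283 to 15.48 (bulge cKO replicate 3) and their estimation stopped before convergence. With single arrays left out, members called ranged from 0 to 2 in bulge cKO against WT, from 0 to 0 in IFE and in the difference, from 11 to 26 for bulge against IFE in cKO and from 18 to 33 in WT. The mean of all members then ranged from 0.02066 to 0.163 in bulge cKO minus WT, from -0.4176 to -0.05613 in IFE, from -0.6107 to -0.3939 for bulge minus IFE in cKO and from -1.023 to -0.662 in WT. Without bulge cKO replicates 2 and 3 together, the bulge cKO minus WT mean was -0.008127. A replicate block gave 14 members for bulge against IFE in cKO and 22 in WT, and 0 in the others; a replicate block within genotype gave 11 and 22, and 0 in the difference. The causes were not tested. Shares of all genes called in these alternative fits are not given here. The counts therefore do not show a change particular to the members. Ccne2, Cdc6 and Bub1 lay below the array median throughout.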
